A study of Mus musculus with 4 samples.

Results

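The antioxidant, glutathione and NRF2 genes described here are a list of 39 mouse genes that defend cells against oxidants, electrophiles and metals. They were followed on 4 Affymetrix arrays of mouse embryonic fibroblasts, of which 2 held RNA from Men1 knockout cells complemented with Men1 and 2 held RNA from Men1 knockout cells complemented with vector. Men1 encodes menin, a nuclear scaffold protein of histone methyltransferase complexes, and the study asked which genes lie downstream of it. All 4 samples carry the Men1 knockout on a mixed FVB;129Sv background and were harvested 24 h after seeding at 70% density in medium with 10% serum. How Men1 was introduced, how many lines or embryos were used and whether replicates were separate cultures is not given in the labels, so p-values reflect only how far these arrays differ from each other, a spread that may be technical. A member was measured if the platform annotation gave at least 1 probe set with its symbol and no other, which held for 33 of the 39 genes and for 45 probe sets, out of 8251 genes and 10833 single-gene probe sets in all. The other 6 were not measured by this rule. Prdx1 and Ftl1 were named only together with another symbol, on 2 and 1 probe sets, and Prdx5, Prdx6, G6pdx and Blvrb had no named probe set.

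NRF2, the product of Nfe2l2, is a transcription factor that is held in the cytoplasm and degraded with the help of KEAP1 until oxidants or electrophiles modify KEAP1. Freed NRF2 pairs with small MAF proteins on antioxidant response elements and raises genes of glutathione synthesis, thioredoxin recycling, quinone and heme metabolism, iron storage and NADPH supply. In fibroblasts this system buffers peroxides made by respiration and growth factor signalling. Metallothioneins, which bind zinc and copper, are controlled mainly by the zinc-sensing factor MTF1 and also respond to oxidants and glucocorticoids.

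None of the 33 measured genes passed the limma threshold between Men1-complemented and vector fibroblasts, and 0% of all 12422 probe sets passed it. Of the 33, 22 differed by less than 0.2 on the log2 scale, 66.7% of them as of all 8251 genes. Hmox1, heme oxygenase 1, had the largest difference in the higher direction, 1.31-fold with Men1 over vector. In the lower direction, Sod3, the extracellular superoxide dismutase, stood at 0.501-fold, and the metallothionein genes Mt1 and Mt2 at 0.556-fold and 0.622-fold. Mt1, Mt2 and Sod3 were lower with Men1 within each replicate number of the titles, but they also differed between the numbers, by 0.78 to 1.31 on the log2 scale. Signals are deposited MAS5 values, fold changes and log2 differences are on the scale of log2(signal + 16), Men1-complemented minus vector, and they understate the change of dim probe sets. Fewer cells of a kind and less RNA per cell cannot be told apart in such samples.

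**Figure D1:**
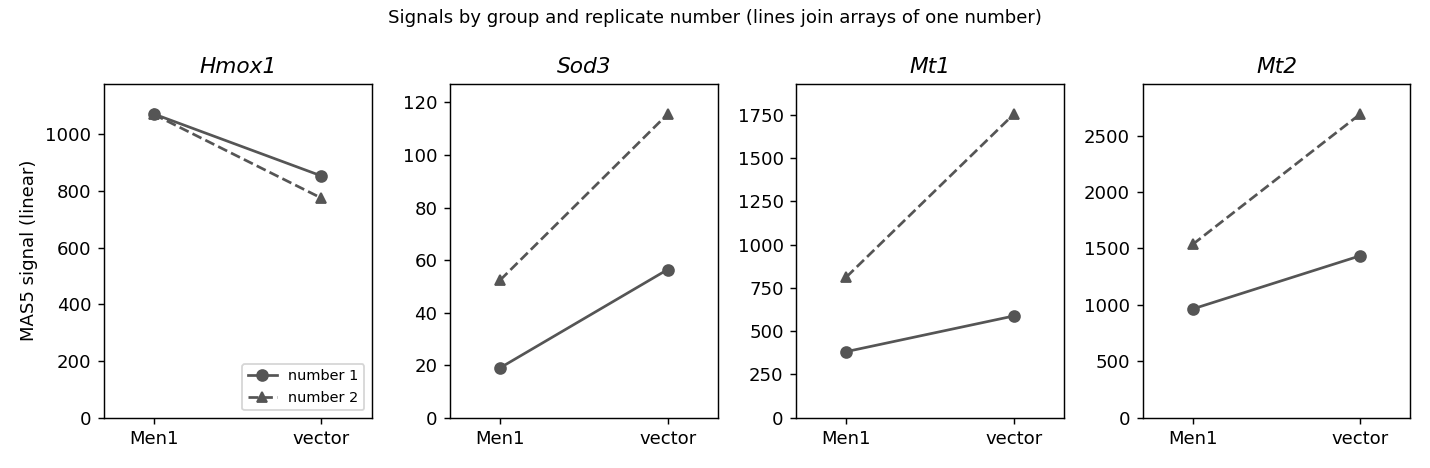
MAS5 signal (linear axis from 0) of Hmox1, Sod3, Mt1 and Mt2 in Men1-complemented (left) and vector (right) cells; circles and solid lines are arrays of replicate number 1, triangles and dashed lines number 2. Hmox1 was higher with Men1 at both numbers, at 1070.9 and 1069.3 against 852.5 and 774.2, whereas Sod3, Mt1 and Mt2 were lower with Men1 at both numbers and higher on the number 2 arrays of both groups.

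The arrays had been scaled as a whole, and their median signals were 54.3 and 55.6 with Men1 against 50 and 62.4 with vector. The single Men1 probe set read 18.8 and 22.5 with Men1 against 18.1 and 29.5 with vector, near the highest signals of the 19 control probe sets with no matching RNA, which were 25.9 and 27.4 with Men1 and 15.9 and 20 with vector. Whether this probe set lies inside the deleted or the reintroduced stretch cannot be told from the labels, so it does not check them. Below, a gene at control level in a group had no array of that group above these controls. As the controls were higher with Men1, a gene with similar signals in both groups can be at control level with Men1 only. Of 10 fibroblast markers, 8 exceeded the controls on all 4 arrays, with summed signals of 10090.1 to 11314.6 with Men1 and 10026.4 to 12007.4 with vector, while the surface marker Thy1 was at control level in both groups. Of 23 measured markers of epithelium, endothelium, blood, skeletal muscle and adipocytes, 7 exceeded the controls on all arrays, and 8 were at control level in both groups. Summed signals of the 4 skeletal muscle markers were separate between groups, at 211 and 166.6 with Men1 against 255 and 249.5 with vector. Of these 4 muscle markers only Myog was itself separate, at 23.7 and 28.1 with Men1 against 68.1 and 53.3 with vector. Its lowest signal was below the control of 25.9 on its array. Acta1 (69.6 and 31.9 against 94.6 and 49.1), Des (37.5 and 8.9 against 13.4 and 37.3) and Myod1 (80.2 and 97.7 against 78.9 and 109.8) overlapped. The sums of the other 4 classes overlapped. Myog, the muscle sum that holds it and these lower markers went the same way as Sod3, Mt1 and Mt2 below. Krt19, Pecam1 and Cd74 went the opposite way. The part of any marker in the member values was not tested.

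Nfe2l2 itself was above the controls on all arrays, at 518 and 584.2 with Men1 against 477.4 and 541.5 with vector. The groups overlapped, and the log2 difference was 0.11 (SE 0.19). Keap1, which encodes the adaptor that marks NRF2 for degradation, read 14.5 and 18 with Men1 against 6.3 and 16.3 with vector. All of these lay at control level, so its level was not measurable on this probe set.

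Hmox1 breaks heme into biliverdin, carbon monoxide and iron, and it is a target of NRF2 and of the repressor BACH1. Its signals were 1070.9 and 1069.3 with Men1 against 852.5 and 774.2 with vector. Both Men1-complemented arrays exceeded both vector arrays, and the 2 Men1-complemented signals were nearly equal. Means were 1070.1 ± 1.13 with Men1 and 813 ± 55.4 with vector (SD, n = 2 each), a log2 difference of 0.39 (SE 0.17), with a limma unadjusted p of 0.0755 and an adjusted p of 1. Nqo1, the quinone reductase often used as a marker of NRF2 activity, read 7 and 4.2 with Men1 against 4.7 and 12.6 with vector on its brighter probe set. Both of its probe sets were at control level in both groups, so Nqo1 was not measurable either.

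Glutathione is made in 2 steps, and the first is limited by glutamate-cysteine ligase, whose catalytic and modifier subunits are Gclc and Gclm. Gclc read 151.1 and 168.5 with Men1 against 132.9 and 144.6 with vector. The groups did not overlap, by a small margin, and the log2 difference was 0.18 (SE 0.18). Gclm read 231.7 and 293.8 with Men1 against 262.4 and 228.9 with vector, so that the groups overlapped, with a difference of 0.09 (SE 0.21). The second enzyme, Gss, read 124 and 165.6 with Men1 against 126 and 179.3 with vector on its brighter probe set. Both number 2 arrays were above both number 1 arrays and the groups overlapped, with a difference of -0.06 (SE 0.25), and of -0.18 (SE 0.32) on the other probe set. Gsr, which reduces oxidised glutathione, read 272.2 and 423.3 with Men1 against 387.4 and 369.9 with vector. The vector signals lay between the Men1-complemented ones, and the difference was -0.15 (SE 0.26).

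Glutathione peroxidases reduce peroxides with glutathione. Gpx1, the main cytosolic form, read 211.7 and 253.2 with Men1 against 202.8 and 279.5 with vector, a log2 difference of -0.04 (SE 0.23). Gpx4, which reduces lipid peroxides in membranes, read 128.3 and 139 with Men1 against 127.8 and 179.1 with vector, a difference of -0.16 (SE 0.22). In both genes the vector array of number 2 was the highest of the 4 and the groups overlapped. Gpx3, the secreted form, was at control level with Men1, at 9.4 and 25.8 against 21 and 14.1 with vector. The lower vector signal was also below its array's control, and the difference was -0.03 (SE 0.30).

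Thioredoxin passes electrons from NADPH to oxidised proteins and peroxiredoxins. Its gene, Txn1, read 2343.6 and 3523.1 with Men1 against 2877.1 and 2948.3 with vector. Both extremes were Men1-complemented arrays, and the log2 difference was -0.02 (SE 0.25). Txnrd1, the cytosolic reductase that recharges thioredoxin, read 1119.7 and 1416.7 with Men1 against 1021.5 and 1224.6 with vector. It was higher with Men1 at both replicate numbers, by 0.13 and 0.21, but the groups overlapped, with a difference of 0.17 (SE 0.22).

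Of the peroxiredoxins, which reduce peroxides with thioredoxin, 3 were measured. Prdx2, a cytosolic form, read 1289.6 and 1474 with Men1 against 1494.9 and 1754.9 with vector, a log2 difference of -0.23 (SE 0.19). Prdx4, the form of the endoplasmic reticulum, read 146.2 and 164.8 with Men1 against 201.7 and 178 with vector, a difference of -0.26 (SE 0.18). For both, each Men1-complemented array was below each vector array. A dimmer Prdx2 probe set had overlapping groups (-0.14, SE 0.22), and the third was at control level. Prdx3, the mitochondrial form, was almost constant, at 540.8 and 540.7 with Men1 against 517 and 517.7 with vector. Its groups were separate, yet the difference was 0.06 on the log2 scale.

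Superoxide dismutases turn superoxide into hydrogen peroxide. Sod3, the secreted form that binds to the matrix and the cell surface, read 19 and 52.4 with Men1 against 56.4 and 115.6 with vector. Both vector arrays were above both Men1-complemented ones, but number 2 exceeded number 1 by 0.97 with Men1 and by 0.86 with vector. The lowest signal was below the control of 25.9 on its array, so the size of the difference is uncertain. Means were 35.7 ± 23.6 with Men1 and 86 ± 41.9 with vector (SD, n = 2 each), a log2 difference of -0.996 (SE 0.45) with a limma unadjusted p of 0.0780 and an adjusted p of 1. By replicate number the difference was -1.05 for number 1 and -0.94 for number 2. It was -0.51 without the Men1-complemented array of number 1 and -0.57 without the vector array of number 2.

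Sod1, the cytosolic form, read 717.1 and 723.7 with Men1 against 780.2 and 729.5 with vector. The groups were separate by a narrow margin, with a log2 difference of -0.07 (SE 0.17). Sod2, the mitochondrial form, read 70.7 and 71.6 with Men1 against 89 and 56.5 with vector, so that the vector arrays lay on both sides (SE 0.24). For catalase, which decomposes hydrogen peroxide, the brighter of 2 Cat probe sets read 238.4 and 144.7 with Men1 against 216 and 380.1 with vector. Its groups overlapped, and the difference of -0.58 (SE 0.37) came from number 2 alone, at -1.30 against 0.13 for number 1. The dimmer Cat probe set read 96.7 and 92.6 with Men1 against 105.1 and 89.3 with vector, a difference of -0.03 (SE 0.18). The brighter set carries the suffix that Affymetrix gave to probe sets shared within a sequence family, so its signal may hold more than Cat.

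**Figure D2:**
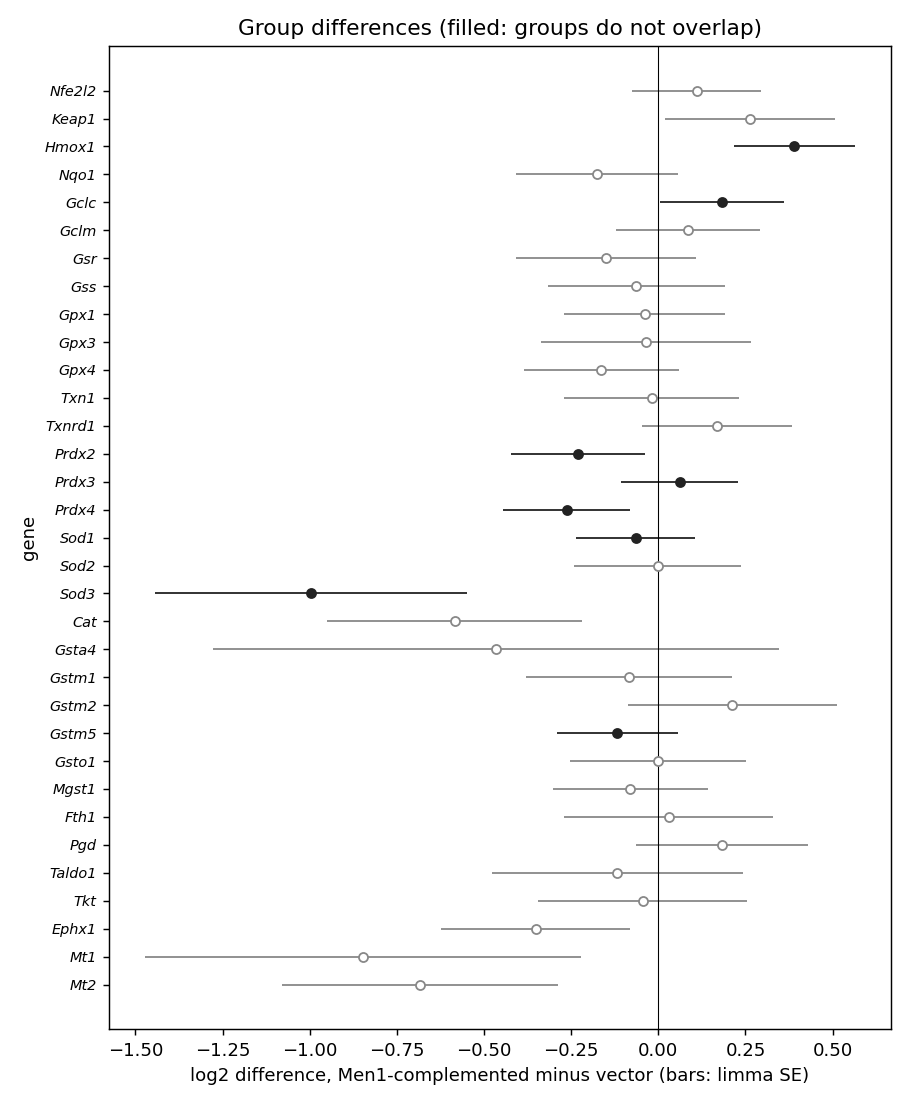
Log2 difference, Men1-complemented minus vector, of each of the 33 measured genes (horizontal axis, bars: limma SE), with filled points where the groups do not overlap. Most points lie near 0, Hmox1 is at 0.39, and Sod3, Mt1 and Mt2 are at -0.996, -0.85 and -0.68.

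Glutathione transferases attach glutathione to electrophiles. Gsta4, which conjugates the lipid peroxidation product hydroxynonenal, read 6.4 and 33.7 with Men1 against 5.5 and 82.6 with vector. On both number 1 arrays it was below the controls, and on both number 2 arrays above them. The groups overlapped, with a log2 difference of -0.46 (SE 0.81). The mu-class genes Gstm1, Gstm2 and Gstm5 are similar in sequence, and the brightest probe sets of Gstm1 and Gstm5 carry the same family suffix, so their signals may mix members.

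The brightest Gstm1 set read 480.3 and 665.4 with Men1 against 484.4 and 743 with vector (difference -0.08, SE 0.29), and that of Gstm5 read 442.1 and 432.8 against 453.6 and 499.7 (-0.12, SE 0.17). Groups overlapped for Gstm1 and were separate for Gstm5. Gstm2 read 90.9 and 139.8 with Men1 against 76 and 118.9 with vector on its brighter set (0.21, SE 0.30). The dimmer Gstm2 set differed in the opposite direction, at 21 and 10.5 with Men1, which is control level, against 26.3 and 34.1 with vector. Its difference was -0.56 (SE 0.24). With the Men1-complemented signals raised to their arrays' controls, this set was 1.08-fold lower with Men1. That bound leaves out the spread between arrays. The other Gstm1 set differed by 0.21 (SE 0.33), and the other 3 Gstm5 sets by -0.21 to 0.06. Gsto1, an omega-class enzyme that reduces dehydroascorbate, read 800.9 and 700.3 with Men1 against 911.7 and 615.4 with vector, with SE 0.25 around a difference near 0. Mgst1, the microsomal form, was at control level with Men1, at 14.5 and 21.8 against 16 and 24.3. Its groups overlapped, with a difference of -0.08 (SE 0.22).

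Fth1, the heavy chain of the iron store ferritin, read 2841.2 and 4138.5 with Men1 against 2767.3 and 4074.3 with vector. Equal-numbered arrays of the 2 groups were nearly equal, with differences of 0.04 and 0.02, whereas number 2 exceeded number 1 by 0.54 with Men1 and 0.55 with vector. Its second probe set showed the same, by 0.44 and 0.51. Here the log2 difference between groups was 0.03 (SE 0.30).

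NADPH for these reductases comes largely from the pentose phosphate pathway. Pgd, which makes NADPH in its oxidative part, read 471.3 and 550.8 with Men1 against 370.4 and 538.8 with vector, a log2 difference of 0.18 (SE 0.25) with overlapping groups. A dim second Pgd probe set differed by -0.24 and was at control level with Men1. With vector, the enzymes of the non-oxidative part ran the other way by replicate number. Tkt, transketolase, read 721.3 and 620.6 with Men1 against 898.4 and 529.8 with vector, and Taldo1, transaldolase, read 150.8 and 150.4 against 239.1 and 112. In both genes the 2 vector arrays were the highest and the lowest, number 1 being above number 2, and the group differences were -0.04 (SE 0.30) and -0.12 (SE 0.36). With Men1, Tkt was lower at number 2 too, whereas Taldo1 was nearly equal at both numbers. Ephx1, which hydrolyses epoxides, read 276 and 253.5 with Men1 against 269.1 and 433.2 with vector. Only the vector array of number 2 stood apart, and the difference was -0.35 (SE 0.27).

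The metallothioneins Mt1 and Mt2 are neighbours on chromosome 8, and their promoters are shown because both genes were lower with Men1 within each replicate number. Both are known targets of MTF1, which binds metal response elements. The sequences are the 250 bases before the annotated start of each gene, from RefSeq (GRCm38.p6), on the plus strand, at chr8:94178839-94179088 for Mt1 and chr8:94172368-94172617 for Mt2. Capitals mark matches, on either strand, to the metal response element cores TGCACNC and TGCGCNC.
Mt1: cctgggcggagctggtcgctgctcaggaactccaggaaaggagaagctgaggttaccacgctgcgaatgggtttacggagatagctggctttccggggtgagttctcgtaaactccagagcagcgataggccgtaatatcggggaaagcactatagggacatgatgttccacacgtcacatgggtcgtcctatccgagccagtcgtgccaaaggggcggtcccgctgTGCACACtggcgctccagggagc
Mt2: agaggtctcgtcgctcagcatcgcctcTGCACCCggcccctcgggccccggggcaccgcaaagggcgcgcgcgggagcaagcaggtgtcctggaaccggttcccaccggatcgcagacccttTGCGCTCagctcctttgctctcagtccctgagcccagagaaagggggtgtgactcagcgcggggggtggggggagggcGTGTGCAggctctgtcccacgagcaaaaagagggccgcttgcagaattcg

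With the 50 bases after the start included, the Mt1 window held 3 such matches and the Mt2 window 4, none overlapping another. Of all 32851 promoter windows of 300 bases, 25.7% held at least 1, 1.97% at least 3 and 0.517% at least 4. Of the 28 measured members found in the promoter table, 7 held at least 1, a share of 25% and near that of all windows. A match to the antioxidant response element core TGACNNNGC, on either strand, was present in the windows of 8 of these 28 members, a share of 28.6% against 12.4% of all windows. These were TGACTCCGC in Nfe2l2, TGACGGTGC in Gclm, TGACAAAGC in Txnrd1, TGACCACGC in both Gstm5 and Sod1, TGACCGTGC in Mgst1, TGACATTGC in Pgd and TGACTCAGC in Mt2. Hmox1, Gclc, Gsr, Sod3 and Gsta4 had no entry. Member shares count genes, whereas the other shares count all windows of the promoter table, not only those of measured genes. The list was chosen to hold NRF2 target genes, so its share of antioxidant response element matches is not an independent result. The matches are letters in a window, not measured binding sites.

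Mt1 read 381.8 and 813.2 with Men1 against 587.7 and 1754.3 with vector. The highest Men1-complemented signal exceeded the lowest vector signal, so the groups overlapped, but at each replicate number the Men1-complemented array was the lower. The log2 difference was -0.60 for number 1 and -1.09 for number 2, and -0.85 overall (SE 0.63, limma unadjusted p = 0.234, adjusted p = 1). Number 2 exceeded number 1 by 1.06 with Men1 and by 1.55 with vector. Without the vector array of number 2 the group difference was -0.07.

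Mt2 read 963.9 and 1536.8 with Men1 against 1435.4 and 2692.3 with vector. Here too the groups overlapped and each number on its own had the lower signal with Men1, by -0.57 and -0.80. The log2 difference was -0.68 (SE 0.40, limma unadjusted p = 0.146, adjusted p = 1), and -0.23 without the vector array of number 2. Number 2 exceeded number 1 by 0.66 with Men1 and 0.90 with vector. The order of the 4 arrays was that of Mt1, an order also found in Gss, Gstm1 and Mgst1. This makes 5 members or 15.2%, against 7.65% of all genes. The 5 include Mt1 and Mt2, from which the order was taken, so the comparison says nothing about the list. At number 1, Gss and Gstm1 were lower with Men1 by only -0.02 and -0.01 on the log2 scale.

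**Figure D3:**
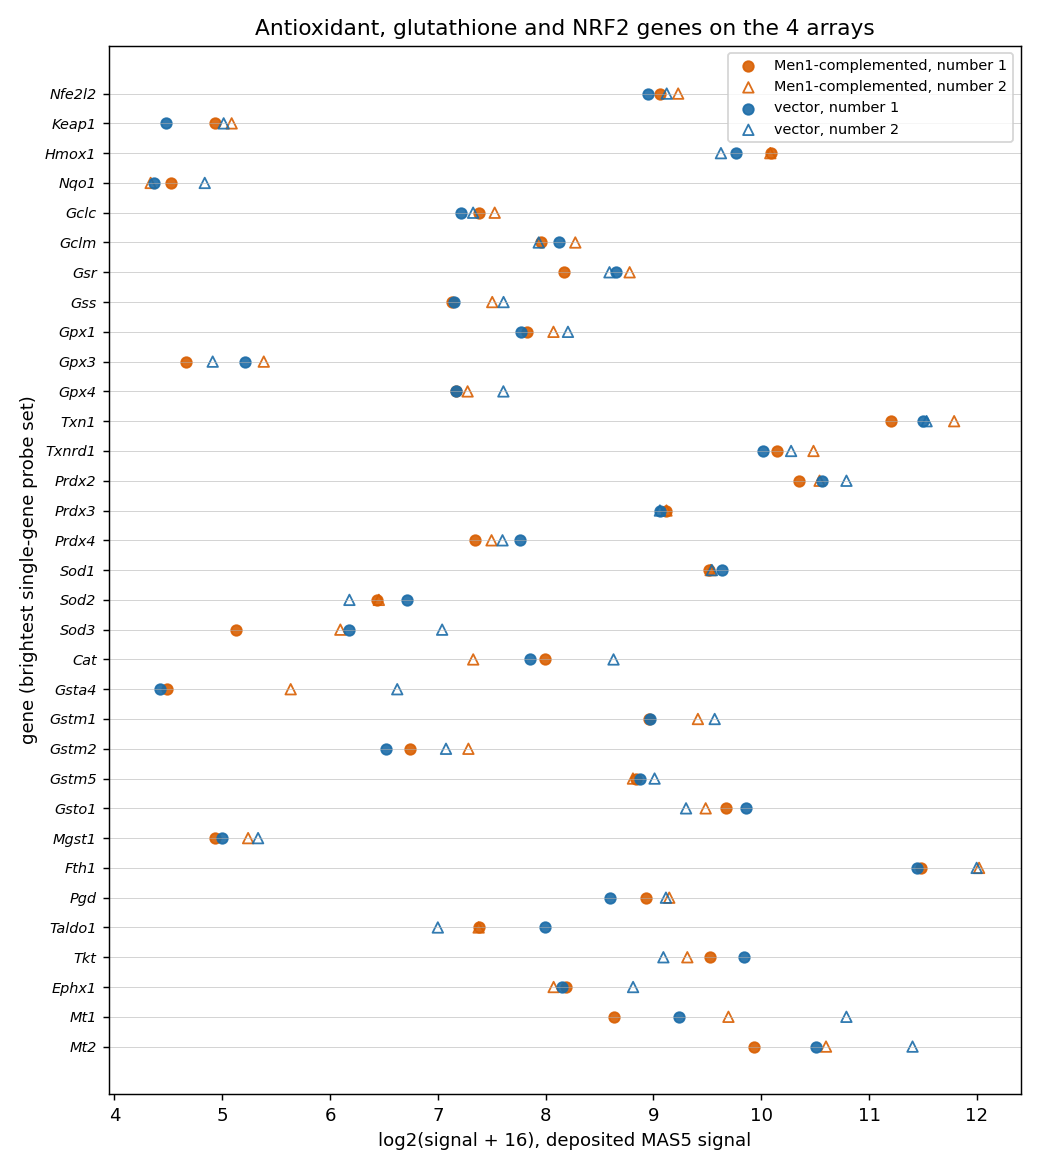
Log2(signal + 16) of the 33 measured genes (rows, brightest single-gene probe set) on the 2 Men1-complemented arrays (orange) and the 2 vector arrays (blue), with filled circles for replicate number 1 and open triangles for number 2. In Fth1, Gstm1 and Mt1 the triangles lie to the right of the circles, in Tkt and Taldo1 to their left, and in Hmox1 the colours separate. The 2 Men1-complemented signals of Taldo1 are nearly equal.

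Over the list, 0 of 33 genes passed the limma adjusted threshold of 0.05, as did 0% of all 12422 probe sets. At a limma unadjusted p under 0.05 there were again 0 members, where 1.68% of all 8251 genes were found. Of the 33, 10 were higher and 23 lower with Men1, against 3880 higher and 4371 lower of all 8251 genes. The median log2 difference was -0.06 for the members and -0.01 for all genes. The groups were separate for 8 members, 3 higher with Men1 (Hmox1, Gclc and Prdx3) and 5 lower (Prdx2, Prdx4, Sod1, Sod3 and Gstm5). This is 24.2% of the members against 22.1% of all genes, a share near the background. Higher and lower separations made up 10.1% and 12% of all genes.

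The lower direction within both replicate numbers was seen in 10 members and the higher direction in 9, which is 30.3% and 27.3% against 23.2% and 19.1% of all genes. With a size of at least 0.5 within each number, chosen after the values were seen, 3 members were lower, namely Sod3, Mt1 and Mt2, where 0.63% of all genes met this. With at least 0.3, also chosen afterwards, only Hmox1 was higher, where 2.07% of all genes met it. Both sizes were set with the member values known, so these comparisons say nothing about the list.

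Replicate number separated more members than the groups did. Both number 2 arrays were above both number 1 arrays for 15 of 33 members, 45.5% against 28.5% of all genes, and below them for 3 members, 9.09% against 17.1%. The 15 include Nfe2l2, Txn1, Txnrd1, Gpx1, Gpx4, Gstm1, Fth1, Pgd, Mt1 and Mt2, and the 3 are Gsto1, Taldo1 and Tkt. For Taldo1 the 2 Men1-complemented signals were nearly equal. Gsta4 and Mt1 were the members whose numbers did not overlap with a mean difference of at least 1, as in 1.7% of all genes. The median difference, number 2 minus number 1, was 0.27 for the members and 0.06 for all genes. For 21 of the 33 members the difference by number was larger than that by group, a share of 63.6%, against 62.7% of all genes. The labels do not say what a number stands for. Signals of the 3′ over the 5′ actin control probe set were 1.18 and 1.09 with Men1 and 1.15 and 1.08 with vector for numbers 1 and 2, and those of Gapdh 0.850 and 0.804 with Men1 and 0.782 and 0.743 with vector. Both ratios were lower on the number 2 arrays of each group. Those of Gapdh were also separate between the groups, being higher with Men1, whereas those of actin overlapped. The part of these ratios in the member values was not tested.

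**Figure D4:**
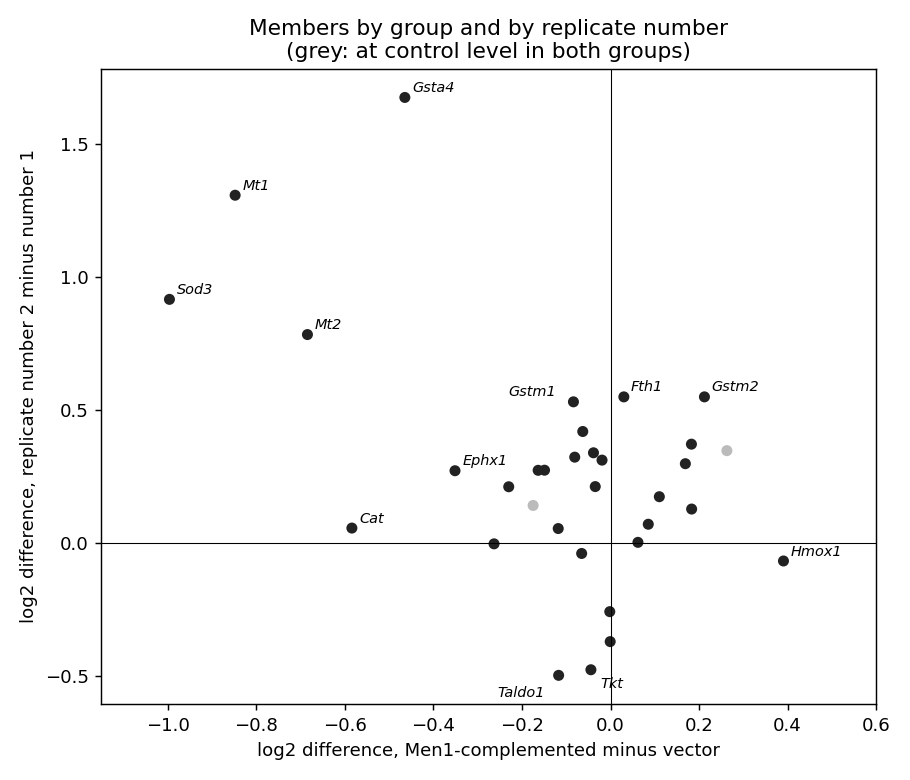
Log2 difference, Men1-complemented minus vector (horizontal), against log2 difference, replicate number 2 minus number 1 (vertical), for the 33 measured genes, with grey points for genes at control level in both groups. Gsta4, Mt1, Sod3 and Mt2 stand at the upper left, Hmox1 at the right near the horizontal line, and Taldo1 and Tkt at the bottom.

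Of 83 other genes of the same pathways, 62 were measured, and 0 passed the limma adjusted threshold or an unadjusted p under 0.05. Of these, 25 were higher and 37 lower with Men1, against 3880 higher and 4371 lower of all 8251 genes. Their median log2 difference was -0.06, and 11 of them lay at control level with Men1 and with vector. Of the 62, 10 were separate and higher and 11 separate and lower, which is 16.1% and 17.7% against 10.1% and 12% of all genes. The smallest p belonged to Cbr3, a carbonyl reductase, at 14.9 and 36.9 with Men1 against 45.7 and 50 with vector (-0.66, SE 0.30). The Men1-complemented signals were lower, and the lowest was below its array's control. Next came Mgst2, a microsomal transferase at control level with Men1, at 9.3 and 6.4 against 12.3 and 25 with vector. Maff, a small MAF partner of NRF2, read 49.8 and 50.8 with Men1 against 36 and 37.2 with vector, with separate groups and a difference of 0.33 (SE 0.17).

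Other genes of metal handling were picked from these 62 after their values were seen. Mtf1, the metal-sensing activator, read 105.6 and 117.1 with Men1 against 89.6 and 197.6 with vector, with overlapping groups and a log2 difference of -0.24 (SE 0.37). Its highest signal was on the vector array of number 2, as for 14 of the 33 members and 41.2% of all genes. Mt3, a metallothionein best known from brain, ran the other way, at 286.1 and 335.9 with Men1 against 245.2 and 241.1 with vector, with separate groups and a difference of 0.33 (SE 0.18). Mt4, another metallothionein, was at control level in both groups. Slc30a1, a zinc exporter and known target of MTF1, was at control level with Men1, at 17.2 and 15.9 against 23.9 and 19.7 with vector. Its groups were separate, with a difference of -0.21 (SE 0.18). The vector signal of 19.7 was also below the control of 20 on its array.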

How the data were processed

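RNA of 4 samples was measured on 1-colour Affymetrix arrays. Values are intensity on a linear scale, as deposited. The submitters' processing notes name Affymetrix Expression Console and MAS5 as what the authors used, without versions, and the scaling target is not given in the sources used here. Trimmed means of 150.07 to 150.08 show that each array was scaled as a whole, so total RNA per cell cannot be compared. Per the labels' protocol, cDNA was primed with poly(T) and random oligomers. The number of arrays limits the precision.

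After 66 control probe sets were left out, 12422 were tested on the log2(signal + 16) scale by limma (version 3.58.1, R 4.3.3), using lmFit with eBayes. Tests were two-sided and adjusted over all probe sets by Benjamini-Hochberg. There were 2 residual degrees of freedom and a median SE of 0.22. The fit was also run on simulated data with independent noise, without the joint deviation of same-numbered arrays given below. That run therefore does not show how many real changes would be missed here. A gene stands for its brightest single-gene probe set. Bounds on a fold use the highest of the 19 unspiked controls. Samples were grouped by title. The members and lists were chosen with earlier results of these data known. All members were named, with values on every array for those of the rule (Nfe2l2, Keap1, Hmox1, Nqo1, Gclc, Gclm, Txnrd1, Sod3, Mt1 and Mt2, members at unadjusted p under 0.05, those with separate groups that differ by at least 0.3 and those with separate numbers that differ by at least 1) and for the others too. Promoters were matched by symbol to a RefSeq table (GRCm38.p6), which held 28 of 33 measured members. Alternatives were a pseudocount of 1, quantile normalization, a filter on dim probe sets, an intensity trend, a replicate block, leaving out arrays and averaging probe sets.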

Additional observations from a re-analysis of the deposited data

How the results depend on the processing

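In every alternative run, 0 probe sets passed the limma adjusted threshold, and the lowest adjusted p of a member was 0.576, without vector replicate 1. Probe sets at an unadjusted p under 0.05 numbered 233 as reported, 130 with the filter on dim probe sets, which tested fewer of them, and 121 to 1031 without single arrays (1031 without vector replicate 1, 559 without vector replicate 2, 121 and 131 without Men1-complemented replicates 1 and 2). Where a group kept a single array, its spread was taken from the other group. Members at an unadjusted p under 0.05 numbered 0 as reported, 1 with the filter (Sod3), 1 with the intensity trend (Hmox1), 3 with the replicate block (Sod3, Mt1 and Mt2, limma unadjusted p of 0.00349, 0.0119 and 0.0182, adjusted p of 1) and 0 to 2 without single arrays (Sod3 without Men1-complemented replicate 2, Ephx1 and Mt2 without vector replicate 1, Taldo1 without vector replicate 2). The cause was not tested. Same-numbered arrays deviated together over all probe sets (correlation 0.258), but nothing in the labels says that a number pairs the samples. With the replicate block, 297 probe sets reached an unadjusted p under 0.05, and no call after adjustment was changed.

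Members with separate groups numbered 8 as reported, 7 with quantile normalization, 6 with averaged probe sets and 16 to 24 without single arrays, where fewer arrays have to be separate. The last were 48.5% to 72.7% of the members, against 50.2% to 72.7% of all genes. The median over the members ranged from -0.16 to 0.074 without single arrays. Of 302 member values under alternatives, 36 had the opposite sign. Sod2 was 0.0042 with a pseudocount of 1 and 0.044 with quantile normalization. Averaging probe sets gave 0.064 for Gstm1, -0.17 for Gstm2 and -0.028 for Pgd. Without single arrays, signs turned for 19 members, with ranges of Keap1 (-0.0044 to 0.53), Nqo1 (-0.41 to 0.058), Gclm (-0.076 to 0.25), Gsr (-0.45 to 0.15), Gss (-0.29 to 0.17), Gpx1 (-0.26 to 0.18), Gpx3 (-0.39 to 0.32), Gpx4 (-0.38 to 0.057), Txn1 (-0.31 to 0.27), Sod2 (-0.27 to 0.27), Gsta4 (-1.56 to 0.63), Gstm1 (-0.38 to 0.22), Gstm2 (-0.064 to 0.49), Gsto1 (-0.28 to 0.28), Mgst1 (-0.25 to 0.086), Fth1 (-0.25 to 0.31), Pgd (-0.078 to 0.44), Taldo1 (-0.61 to 0.38) and Tkt (-0.42 to 0.33). The remaining members kept their sign, among them Hmox1 (0.32 to 0.46), Sod3 (-1.48 to -0.51), Mt1 (-1.62 to -0.072) and Mt2 (-1.13 to -0.23). So did Nfe2l2, Gclc, Txnrd1, Prdx2, Prdx3, Prdx4, Sod1, Cat, Gstm5 and Ephx1. Where the groups are separate, as for Hmox1 and Sod3, leaving out a single array cannot turn the sign.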
